A study of Mus musculus with 6 samples.

Results

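The creatine system comprises the creatine kinases, the 2 enzymes that make creatine and the carrier that brings it into cells. Of 7 genes looked for by symbol, 5 were found in a table of 23407 genes. These are Ckb and Ckmt1 (creatine kinases), Gatm and Gamt (synthesis) and Slc6a8 (uptake); Ckm and Ckmt2 are not analysed here. The group was chosen by the p-value of Ckb, the smallest among all genes higher in TSP2KO fibroblasts (limma, unadjusted p = 8.03e-05), and completed with the genes of the same pathway. The difference between genotypes is therefore given for every member as a description, and nothing is supported with it.

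RNA was sequenced from 3 libraries labelled TSP2KO, from mice lacking thrombospondin-2 (a secreted matricellular glycoprotein), and from 3 libraries labelled WT. Both groups were primary dermal fibroblasts of mice aged 12 weeks, taken from dorsal skin, freed with trypsin and collagenase, grown for 3 to 5 days in medium with serum and harvested at passage 1 with no treatment. The labels give neither the construct nor the strain, nor whether each library is a separate animal; p-values thus reflect the variation among these 6 libraries alone, part of which can be technical. Libraries are numbered as in the labels.

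Creatine kinases move a phosphate group between ATP and creatine, which lets cells buffer ATP and carry energy from mitochondria to the places that use it. Ckb encodes the cytosolic brain-type subunit, also found in smooth muscle and many other cells, and Ckm the muscle-type subunit. Ckmt1 encodes the ubiquitous mitochondrial enzyme and Ckmt2 the one of sarcomeric muscle. Creatine is made in 2 steps. GATM, a mitochondrial enzyme, makes guanidinoacetate from arginine and glycine, and GAMT methylates it with a methyl group from S-adenosylmethionine. SLC6A8 imports creatine with sodium and chloride.

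Library depth, estimated from the worth of 1 read, lay between 14776502 and 20521968 reads in TSP2KO and between 18266754 and 34599855 reads in WT. Thbs2, the gene named by the genotype, had 5177, 6635 and 4891 normalised reads in TSP2KO 1, 2 and 3, against 122061, 116720 and 8841 in WT 1, 2 and 3. The library labelled WT 3 thus went against its label for the targeted gene, and members' fold changes, and list results that move with it, are also given without it. The 10 fibroblast markers were all present, led by the collagen genes Col3a1 and Col1a2, and summed to between 146684 and 235445 normalised reads in TSP2KO and between 182112 and 343888 in WT. Of these markers, 2 were higher and 8 lower in TSP2KO (median log2 fold change -0.85, and -1.30 without the library labelled WT 3), and 0 passed with all libraries. Over the 14707 genes tested, none passed a Benjamini-Hochberg adjusted p under 0.05 as higher in TSP2KO (0% of genes, also 0 by limma-voom; 538, or 3.66%, had an unadjusted p under 0.05), and 9 passed as lower (0.0612%; 896, or 6.09%, had an unadjusted p under 0.05). By limma-voom, 0 genes passed as lower. Without the library labelled WT 3, 357 genes were higher (2.43%) and 404 lower (2.75%). None of the 5 members was called with all libraries, and 1, Ckb, was called as higher without the library labelled WT 3.

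Ckb stands on chromosome 12 (111669361 to 111672338, minus strand, mm10). The mouse genome also holds Gm12892, a processed pseudogene of Ckb in a single exon on chromosome 4 (122008193 to 122009338, plus strand), which has its own row in the table. Its 1146 bases cover the Ckb coding sequence, bases 125 to 1270 of the 1472-base mRNA. A local alignment of the GENCODE M21 transcripts found 1112 of 1143 aligned positions identical (97.3%), with the longest identical run 250 bases long. The first 120 bases of the coding sequence are shown for both because reads from such a stretch can match either copy. Capitals mark the bases that differ.
Ckb: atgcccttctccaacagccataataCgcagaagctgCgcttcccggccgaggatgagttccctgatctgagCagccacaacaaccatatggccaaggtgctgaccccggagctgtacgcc
Gm12892: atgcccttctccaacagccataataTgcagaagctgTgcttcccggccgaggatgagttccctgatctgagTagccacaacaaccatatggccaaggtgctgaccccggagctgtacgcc

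The stretches differ at 3 of 120 bases. In units of 1 read, Ckb did not come to whole numbers, with 1695.88, 1899.08 and 1294.31 reads in TSP2KO 1, 2 and 3, and 594.29, 672.83 and 653.37 in WT 1, 2 and 3. Gm12892 was likewise fractional. The sum of both rows was a whole number of reads within 0.02 in each of the 6 libraries: 2031, 2327 and 1559 in TSP2KO 1, 2 and 3, against 711, 791 and 777 in WT 1, 2 and 3. Such sums arise when a read that matches both copies is divided between them. Gm12892 held 16.5%, 18.4% and 16.98% of the summed reads in TSP2KO 1, 2 and 3, and 16.4%, 14.9% and 15.9% in WT 1, 2 and 3. The other 4 members came to whole reads within 0.02 in every library. How many reads truly came from the pseudogene cannot be told from these values.

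Of the Ckb promoter, the stretch next to the start is shown because Ckb was the member whose groups separated. These are the 100 bases before the start site, chr12:111672339-111672438, minus strand, from RefSeq on GRCm38.p6, with matches to TATAAA and CCAAT in capitals.
Ckb promoter: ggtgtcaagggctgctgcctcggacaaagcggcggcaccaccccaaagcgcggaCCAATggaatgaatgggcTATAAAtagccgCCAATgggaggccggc

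TATAAA begins 28 bases before the start, and CCAAT occurs on the coding strand at 46 and 16 bases before it. On either strand, TATAAA occurs in 13.6% and CCAAT in 37.4% of 32851 RefSeq promoter windows of 300 bases. GGGCGG, the GC box, occurs in 35.7% of those windows and has no match in that of Ckb, while the Gamt window holds 4. The motifs do not overlap one another in the stretch printed. A match is a string of letters, not a measured site.

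Ckb was the more abundant of the 2 creatine kinases measured in every library, and its mean was about 3 times higher in TSP2KO. It had 974, 1062 and 1152 normalised reads in TSP2KO 1, 2 and 3, against 306, 264 and 419 in WT 1, 2 and 3. The lowest TSP2KO library lay above the highest WT library, which was the one labelled WT 3. The means were 1063 ± 89.1 in TSP2KO and 330 ± 80.3 in WT (SD, n = 3 each), a ratio of 3.22. On the log2(value + 1) scale the fold change was 1.71 (SE 0.22, 95% interval 1.20 to 2.22, limma adjusted p = 0.0791). Leaving out the library labelled WT 3 gave 1.90 (SE 0.18, limma adjusted p = 0.00988). Groups that do not overlap with TSP2KO higher were found for 5.90% of all genes tested, and Ckb was the 1 member of 5 with that pattern.

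The pseudogene row moved with Ckb. Gm12892 had 193, 239 and 236 normalised reads in TSP2KO 1, 2 and 3, against 60.1, 46.4 and 79.3 in WT 1, 2 and 3. Both rows summed gave 1286 ± 112 normalised reads in TSP2KO and 392 ± 96.6 in WT (SD, n = 3 each), with a log2 fold change of 1.74 (SE 0.22, limma adjusted p = 0.0784). The difference in Ckb was thus as large with the divided reads put back together. The sum was chosen after the data were seen.

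**Figure D1:**
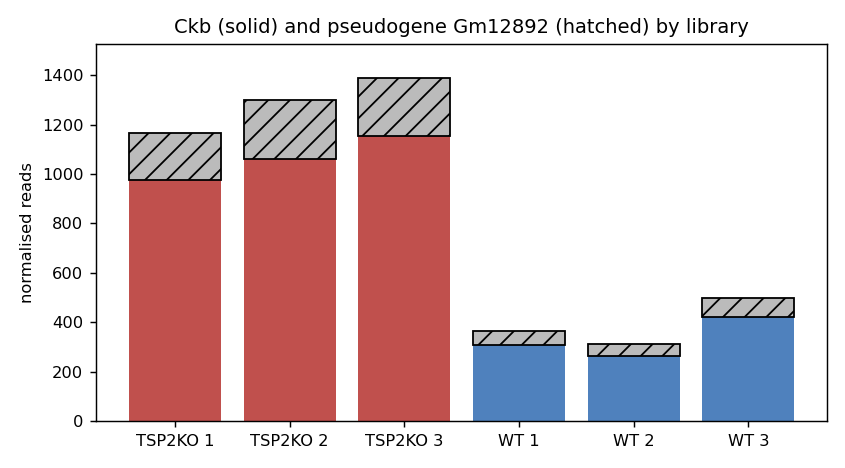
Normalised reads (y axis, from 0) of Ckb (solid, red for TSP2KO and blue for WT) with those of the pseudogene Gm12892 stacked on top (hatched) in each of the 6 libraries. The stacked bars reach 1167 to 1388 in TSP2KO and 310 to 498 in WT, and the hatched share stays between 14.9% and 18.4%.

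Ckmt1, the mitochondrial enzyme, was low and uneven, and did not follow the labels. It stands on chromosome 2 (121357714 to 121363737, plus strand), where Strc overlaps it on the opposite strand; how strand was handled in counting is not given in the sources, so its reads cannot be told apart from those of Strc with certainty. It had 56.3, 55.9 and 6.23 normalised reads in TSP2KO 1, 2 and 3, against 2.06, 2.35 and 91.7 in WT 1, 2 and 3. These values rest on 98, 100 and 7 reads in TSP2KO and on 4, 6 and 143 reads in WT. The library labelled WT 3 was the highest of all, TSP2KO 1 and 2 followed, and TSP2KO 3 was low, though above WT 1 and 2. The means were 39.5 ± 28.8 in TSP2KO and 32.0 ± 51.7 in WT (SD, n = 3 each). The log2 fold change was 1.54 (SE 1.46, 95% interval -1.88 to 4.97, limma adjusted p = 0.793), and 3.16 (SE 0.97, limma adjusted p = 0.105) with the library labelled WT 3 omitted. The gene passed the filter on low values through 3 libraries from both groups.

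The 3 libraries highest in Ckmt1 were also the 3 highest in keratinocyte and in endothelial markers, with the library labelled WT 3 first in each. All 13 listed keratinocyte markers were in the table, and they summed to 14949, 13488 and 586 normalised reads in TSP2KO 1, 2 and 3, against 1699, 582 and 42862 in WT 1, 2 and 3. Krt14, a keratin of basal keratinocytes, had 5061, 4727 and 157 normalised reads in TSP2KO 1, 2 and 3, against 553, 180 and 15525 in WT 1, 2 and 3. Across the 6 libraries, the log2 value of Ckmt1 and the mean log2 value of the 10 keratinocyte markers tested had a Pearson r of 0.93 (0.90 without the library labelled WT 3). The measures share their libraries, and r is given as a description. The same r was 0.90 for 5 melanocyte markers, 0.83 for 3 skeletal muscle markers and 0.77 for 7 endothelial markers, so that Ckmt1 varied with several marker lists. The 7 endothelial markers summed to 2275, 2232 and 570 normalised reads in TSP2KO 1, 2 and 3, against 1282, 543 and 5104 in WT 1, 2 and 3. The 6 melanocyte markers summed to 884, 483 and 212 in TSP2KO 1, 2 and 3, against 672, 789 and 1577 in WT 1, 2 and 3. The keratinocyte sums run from 586 to 14949 in TSP2KO and from 582 to 42862 in WT, and no listed keratinocyte marker was at 0 in all libraries. The part of these cell types' RNA in the Ckmt1 values was not tested. In bulk samples, fewer cells of a type and less RNA per cell cannot be told apart.

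**Figure D2:**
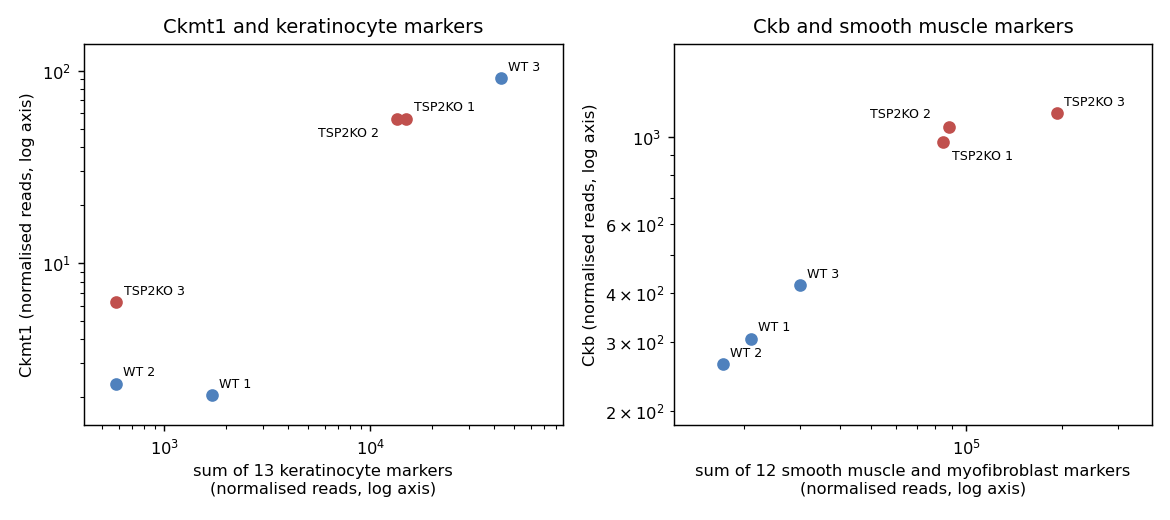
Ckmt1 against the sum of 13 keratinocyte markers (left) and Ckb against the sum of 12 smooth muscle and myofibroblast markers (right), in normalised reads on log axes, with 1 point per library (red TSP2KO, blue WT). In the left panel TSP2KO 1 and 2 lie with the library labelled WT 3 at 55.9 to 91.7 reads of Ckmt1; in the right panel the 3 TSP2KO libraries lie apart from the 3 WT libraries on both axes.

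The markers of contractile cells put the 6 libraries in the same order as Ckb. The 12 markers of smooth muscle and myofibroblasts, all in the table, summed to 84587, 88514 and 192648 normalised reads in TSP2KO 1, 2 and 3, against 21052, 17178 and 29940 in WT 1, 2 and 3. Of these, 11 were higher and 1 lower in TSP2KO, and their median log2 fold change was 2.098 against -0.01 over all genes tested (12 higher after quantile normalisation); 0 passed with all libraries, and 6 of 12 passed as higher without the library labelled WT 3, beside 2.43% of all genes. Acta2, smooth muscle actin, averaged 73290 ± 31704 normalised reads in TSP2KO and 13426 ± 4268 in WT (SD, n = 3 each). Keratinocyte markers did not have the order of Ckb, which was as high in TSP2KO 3 as in TSP2KO 1 and 2. The 13 macrophage markers ran the other way, with sums between 730 and 846 in TSP2KO and between 3344 and 5996 in WT. All 11 tested macrophage markers were lower in TSP2KO (median log2 fold change -2.57). One of them, the complement gene C1qb, passed with all libraries (limma adjusted p = 0.0456; named after its value was seen), beside 0.0612% of all genes as lower, and 9 passed as lower without the library labelled WT 3, beside 2.75%. By limma-voom, quantile normalisation or the replicate block, no gene passed as lower with all libraries, C1qb included. Over the 6 libraries, Ckb had a Pearson r of -0.97 with macrophage, 0.96 with contractile, -0.94 with fibroblast, 0.85 with skeletal muscle and -0.71 with Schwann cell markers (-0.99, 0.96, -0.97, 0.96 and -0.79 in the same order without the library labelled WT 3). With keratinocyte, endothelial, melanocyte and adipocyte markers r lay between -0.62 and 0.24. Without the library labelled WT 3 it lay between -0.64 for adipocyte and 0.50 for keratinocyte markers. Ckb was chosen for its difference between the genotypes, so lists that differ between them tend to have a large r with it. These r values are given as a description. Skeletal muscle markers were sparse, with 12 of the 15 in the table under a mean of 10 normalised reads. Acta1, skeletal muscle actin, had 464 ± 164 in TSP2KO and 74.1 ± 112 in WT (SD, n = 3 each). Its WT values were 6.70, 12.2 and 203 in WT 1, 2 and 3. With all libraries 0 of the 3 tested skeletal muscle markers passed. Without the library labelled WT 3, 1 passed as higher, beside 2.43% of all genes. It was Acta1 (log2 fold change 5.46, limma adjusted p = 0.00525). The part of these cell types in the Ckb difference was not tested.

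Of the enzymes that make creatine, Gatm was well expressed and Gamt sparse, and for neither did the groups separate. Gatm, on chromosome 2 (122594467 to 122611303, minus strand), had 631, 474 and 188 normalised reads in TSP2KO 1, 2 and 3, against 630, 439 and 788 in WT 1, 2 and 3. TSP2KO 3 was the lowest library, and the other 5 overlapped. The means were 431 ± 225 in TSP2KO and 619 ± 174 in WT (SD, n = 3 each), with a log2 fold change of -0.65 (SE 0.46, 95% interval -1.72 to 0.43, limma adjusted p = 0.718). Without TSP2KO 3 it was -0.14, and without the library labelled WT 3 it was -0.46. Over the 6 libraries, Gatm had a Pearson r of 0.92 with the 2 adipocyte markers tested and 0.82 with the endothelial markers. The 4 adipocyte markers in the table summed to 2352, 1917 and 1145 normalised reads in TSP2KO 1, 2 and 3, against 5485, 5647 and 5845 in WT 1, 2 and 3, lowest in TSP2KO 3 as Gatm was. Most of each sum was Lpl, with 1636 ± 524 in TSP2KO and 5292 ± 270 in WT (SD, n = 3 each). The sum ran only from 5485 to 5845 in WT, where Gatm ran from 439 to 788. The r was taken with the mean log2 value of Lpl and Fabp4, not with the sum. Fabp4 had 165, 262 and 23.1 normalised reads in TSP2KO 1, 2 and 3, against 150, 109 and 836 in WT 1, 2 and 3. Adipoq, under the filter on low values, did not have the pattern of Lpl (named after its value was seen). It had 19.5, 32.4 and 1.78 in TSP2KO 1, 2 and 3, against 1.03, 0.392 and 3.21 in WT 1, 2 and 3. The part of these cell types in the Gatm values was not tested.

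Gamt, on chromosome 10 (80258151 to 80261012, minus strand), had 18.96, 52.0 and 21.4 normalised reads in TSP2KO 1, 2 and 3, against 89.1, 47.9 and 19.2 in WT 1, 2 and 3. These were 33, 93 and 24 reads in TSP2KO and 173, 122 and 30 reads in WT. WT 1 was the highest, TSP2KO 2 lay beside WT 2, and the library labelled WT 3 lay among the 2 low TSP2KO libraries. The log2 fold change was -0.64 (SE 0.63, 95% interval -2.13 to 0.85, limma adjusted p = 0.800), and -1.21 (limma adjusted p = 0.216) with the library labelled WT 3 left out. Its r with the 9 marker lists lay between -0.77 for skeletal muscle and 0.72 for fibroblasts. Without the library labelled WT 3 these ends were -0.76 and 0.80. The r then moved from 0.39 to 0.74 for macrophage and from 0.15 to 0.67 for adipocyte markers.

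Slc6a8, the creatine transporter on the X chromosome (73673150 to 73682502, plus strand), varied least over the 6 libraries, with a highest value 2.08 times the lowest. It had 506, 481 and 384 normalised reads in TSP2KO 1, 2 and 3, against 590, 797 and 461 in WT 1, 2 and 3. The library labelled WT 3 lay within the TSP2KO values, and WT 1 and 2 lay above them. The means were 457 ± 64.4 in TSP2KO and 616 ± 169 in WT (SD, n = 3 each), with a log2 fold change of -0.40 (SE 0.24, 95% interval -0.98 to 0.17, limma adjusted p = 0.683). It was -0.60 with the library labelled WT 3 omitted (SE 0.22, limma adjusted p = 0.158). Without that library the groups did not overlap for Slc6a8, Ckb and Ckmt1, a pattern then found for 43.5% of all genes tested in either direction. Over the 6 libraries, Slc6a8 had an r of -0.88 with contractile, 0.86 with fibroblast and 0.84 with Schwann cell markers. The 8 Schwann cell markers summed to between 2871 and 8824 normalised reads in TSP2KO and between 6866 and 20250 in WT, and their part in the Slc6a8 values was not tested.

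**Figure D3:**
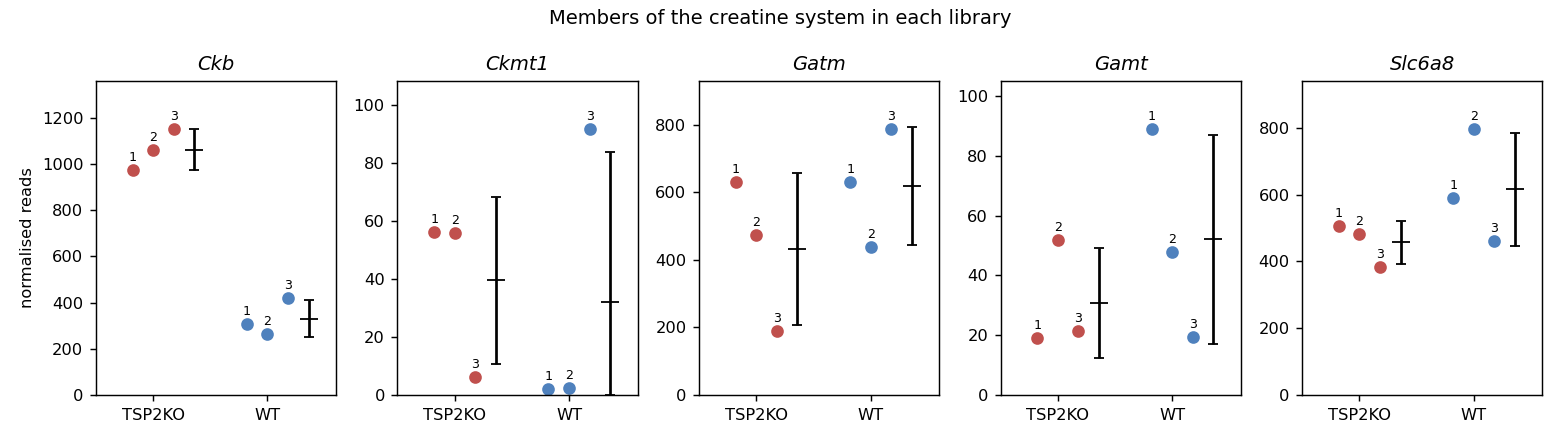
Normalised reads of the 5 members in each library (points numbered by replicate, red TSP2KO, blue WT), with mean and SD of each group in black (n = 3 each; the SD bar of Ckmt1 in WT is cut at 0). Ckb separates the groups, 974 to 1152 in TSP2KO and 264 to 419 in WT, while in the other 4 panels the groups overlap.

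**Figure D4:**
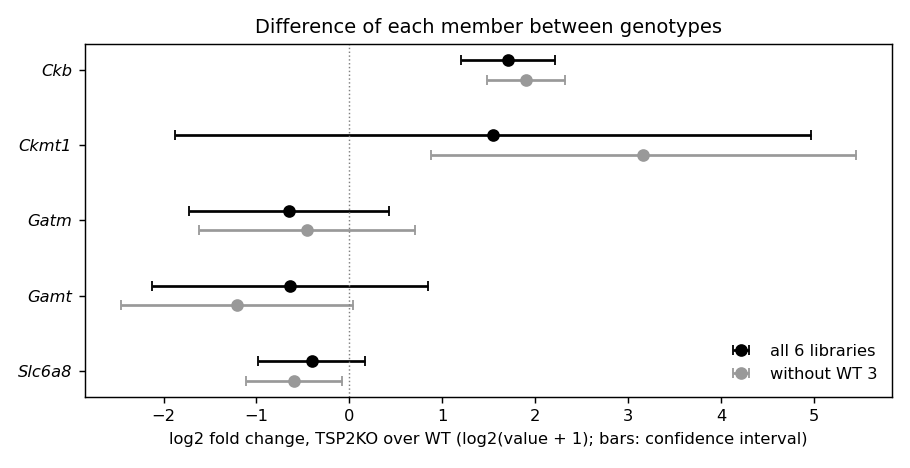
Log2 fold change of each member, TSP2KO over WT, on the log2(value + 1) scale (x axis), with 95% intervals from limma, for all 6 libraries (black) and without the library labelled WT 3 (grey). Ckb lies at 1.71 with all libraries and 1.90 without that library, and the intervals of the other 4 cross 0 with all libraries.

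Levels were then compared between members per length, as normalised reads per kilobase of the longest protein-coding transcript. In TSP2KO, Ckb led with 722 ± 60.5, followed by Gatm with 180.5 ± 94.1, Slc6a8 with 115 ± 16.3, Gamt with 31.2 ± 18.7 and Ckmt1 with 24.4 ± 17.8 (SD, n = 3). In WT, Gatm came first with 259 ± 73.0, then Ckb with 224 ± 54.5, Slc6a8 with 155 ± 42.7, Gamt with 52.7 ± 35.5 and Ckmt1 with 19.8 ± 31.9 (SD, n = 3). In TSP2KO, the libraries' values of Ckb and Gatm did not overlap, nor did those of Slc6a8 and Gamt, while Gatm overlapped with Slc6a8 and Gamt with Ckmt1. In WT, Slc6a8 and Gamt did not overlap, and the other neighbours in the order did. Without the library labelled WT 3 the order in WT was the same, with means of 224, 194, 175, 69.3 and 1.36 from Gatm to Ckmt1, and Gamt and Ckmt1 no longer overlapped. The Ckb level exceeded that of 90.7% of 12545 protein-coding genes tested in TSP2KO and 71.5% in WT (68.7% without the library labelled WT 3), while Slc6a8 exceeded 58.6% in TSP2KO and 63.7% in WT (66.4% without it). Measured against the union of exons, which for Ckb includes retained introns, Ckb led in TSP2KO with 367 ± 30.8 and was behind Slc6a8 in WT, at 114 ± 27.7 against 118 ± 32.5 (SD, n = 3). All Ckb levels here leave out the reads given to Gm12892, which were 14.9% to 16.4% of the summed reads in WT. With those reads added, the place of Ckb behind Gatm, or behind Slc6a8 by union of exons, could differ in WT.

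Ratios between members were also taken within each library, where scaling between libraries has no part. The per-length ratio of Ckb to Slc6a8 was 5.19, 5.95 and 8.09 in TSP2KO 1, 2 and 3, against 1.40, 0.892 and 2.45 in WT 1, 2 and 3. The ratio of Ckb to Gatm was 2.50, 3.63 and 9.96 in TSP2KO 1, 2 and 3, against 0.789, 0.97498 and 0.864 in WT 1, 2 and 3. Neither ratio overlapped between the groups, as follows in part from the Ckb values themselves. The Ckb values in these ratios leave out the reads given to Gm12892, and both ratios would be higher with them added. The ratio of Gatm to Gamt, which joins both steps of synthesis, was 13.8, 3.77 and 3.64 in TSP2KO 1, 2 and 3, against 2.92, 3.797 and 16.9 in WT 1, 2 and 3, and overlapped. Of the 2 creatine kinases measured, Ckb made up 95.01%, 95.4% and 99.5% per length in TSP2KO 1, 2 and 3, against 99.4%, 99.2% and 83.4% in WT 1, 2 and 3.

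The members had no common pattern over the libraries, and several r values between them moved when the library labelled WT 3 was omitted. Over the 6 libraries, the Pearson r of log2 values was -0.78 between Ckb and Slc6a8, 0.50 between Ckb and Ckmt1, -0.46 between Ckb and Gatm and -0.49 between Ckb and Gamt. Gatm and Gamt, which act in sequence, had an r of 0.14. Without the library labelled WT 3, the r of Ckb was -0.89 with Slc6a8, 0.77 with Ckmt1, -0.40 with Gatm and -0.69 with Gamt, and that of Gatm with Gamt was 0.44. Members of 1 library share its depth and its cells, and these r values describe 5 or 6 libraries only.

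Among 11514 other genes with a mean of at least 50 normalised reads, 5 had a Pearson r of at least 0.99 with Ckb over the 6 libraries. First was the pseudogene Gm12892 (r = 0.997), which shares reads with Ckb. Corin, a membrane serine protease that activates atrial natriuretic peptide, followed (r = 0.997), with 113, 145 and 162 normalised reads in TSP2KO 1, 2 and 3, against 24.7, 15.7 and 34.6 in WT 1, 2 and 3. Myh10, the heavy chain of non-muscle myosin IIB, had an r of 0.995, and 0.999 without the library labelled WT 3. Its values were 684, 756 and 798 in TSP2KO 1, 2 and 3, against 314, 286 and 436 in WT 1, 2 and 3. Rdm1, a protein with a RAD52 motif, had an r of 0.994, and Scube3, a secreted protein with EGF-like domains, an r of 0.992. As Ckb was chosen for its difference between the genotypes, genes with a like difference rank high here.

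For Gatm, the most similar patterns were those of Rpf1 (r = 0.993), a ribosome assembly factor, Svip (r = 0.984) and Ttll4 (r = 0.983), a tubulin glutamylase. For Slc6a8 they were Naa80 (r = 0.995), the enzyme that acetylates actin, Depdc5 (r = 0.987), a subunit of the GATOR1 complex, and Mlana (r = 0.984), a melanocyte gene with 24.9 to 49.4 normalised reads in TSP2KO and 36.6 to 107 in WT. With the mean of the 5 melanocyte markers tested, Mlana among them, Slc6a8 had an r of only -0.17 (-0.01 without the library labelled WT 3). An r of at least 0.9 over the 6 libraries was reached by 182 genes for Ckb, 133 for Gatm and 162 for Slc6a8, so these names describe likeness in a small set of libraries.

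The neighbours of creatine metabolism were read from 7 gene lists. In the order given below, the lists had 12, 5, 18, 5, 4, 11 and 12 tested members. With all libraries, 0 members of these lists passed in either direction, beside 0% of all genes as higher and 0.0612% as lower. Without the library labelled WT 3, 4 passed as higher and 1 as lower (beside 2.43% and 2.75% of all genes). With all libraries, the largest log2 fold change among them was 1.57, for Ppargc1b. Without the library labelled WT 3 it was 2.34, also for Ppargc1b, followed by 2.21 for Alpl and 2.12 for Arg1 (arginase, limma adjusted p = 0.307; named after its value was seen), each above the 1.90 of Ckb.

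Other enzymes that move phosphate between nucleotides, the adenylate kinases and nucleoside diphosphate kinases, had 5 of 12 tested members with positive and 7 with negative log2 fold changes, and a median of -0.04 (0.03, with 7 positive, after quantile normalisation; 0.16, with 8 positive, without the library labelled WT 3). Ak1, the main cytosolic adenylate kinase, averaged 4444 ± 1258 normalised reads in TSP2KO and 3296 ± 636 in WT (SD, n = 3 each). Ak5, an adenylate kinase known from brain, averaged 48.4 ± 8.36 in TSP2KO and 18.8 ± 5.49 in WT (SD, n = 3 each), without overlap (log2 fold change 1.34, SE 0.35, limma adjusted p = 0.263). Groups without overlap and with TSP2KO higher were found for 5.9% of all genes tested. Nme2, a nucleoside diphosphate kinase, and Ak4, a mitochondrial adenylate kinase, had log2 fold changes of 0.88 and -0.56 (1.23 and -0.36 without that library). Without it the log2 fold change was 0.26 for Ak1 and 1.55 for Ak5.

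Mitochondrial creatine kinase works beside the porins of the outer membrane and the adenine nucleotide carriers of the inner one. All 5 tested members had positive log2 fold changes, with a median of 0.19 (0.20 without the library labelled WT 3). Vdac1, a porin, averaged 2636 ± 301 normalised reads in TSP2KO and 1918 ± 204 in WT (SD, n = 3 each), with a log2 fold change of 0.46 (SE 0.17, limma adjusted p = 0.442). Vdac2, Slc25a4 and Slc25a5 had log2 fold changes of 0.13, 0.27 and 0.19, and of 0.15, 0.20 and 0.52 without that library.

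Genes that supply arginine, glycine and methyl groups had 13 of 18 tested members with positive and 5 with negative log2 fold changes (15 positive after quantile normalisation), with a median of 0.14 (0.23 without the library labelled WT 3). Slc7a1, a cationic amino acid transporter that takes up arginine, had 724, 619 and 851 normalised reads in TSP2KO 1, 2 and 3, against 373, 396 and 511 in WT 1, 2 and 3. Of all genes tested, 5.9% had groups without overlap and with TSP2KO higher, as Slc7a1 did. The groups did not overlap, and the log2 fold change of 0.78 (SE 0.21, limma adjusted p = 0.264) missed the threshold; leaving out the library labelled WT 3 gave 0.91, which passed (limma adjusted p = 0.0481). Phgdh and Psph, of serine synthesis upstream of glycine, had log2 fold changes of 0.45 and 0.61. Mat2b, the regulatory subunit of the enzyme that makes S-adenosylmethionine, had -0.31 (-0.47 without that library).

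Carriers related to SLC6A8, with the creatine carrier gene Slc16a12, had 2 of 5 tested members with positive and 3 with negative log2 fold changes, and a median of -0.74 (1 positive, 4 negative and -0.93 without the library labelled WT 3). Slc16a12 had 46.0, 60.4 and 2.67 normalised reads in TSP2KO 1, 2 and 3, against 65.9, 58.5 and 66.7 in WT 1, 2 and 3, so that TSP2KO 3 stood apart, as it did for Gatm. Slc6a6, the taurine transporter, was the most abundant, at 3151 ± 655 in TSP2KO and 2086 ± 804 in WT (SD, n = 3 each), with a log2 fold change of 0.65, and of 0.32 without that library. Slc6a9, a glycine transporter, had 559, 601 and 401 in TSP2KO 1, 2 and 3, against 1079, 884 and 660 in WT 1, 2 and 3 (log2 fold change -0.74, SE 0.25, limma adjusted p = 0.389). Slc6a12, the betaine transporter, had a log2 fold change of -1.04, and of -1.65 without the library labelled WT 3, where it passed (limma adjusted p = 0.0470).

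In thermogenic fat, CKB takes part in a futile creatine cycle in which the phosphatase TNAP, encoded by Alpl, splits phosphocreatine. Alpl had 200, 287 and 181 normalised reads in TSP2KO 1, 2 and 3, against 51.5, 41.6 and 273 in WT 1, 2 and 3. The library labelled WT 3 lay with TSP2KO; the log2 fold change was 1.37 (SE 0.68, limma adjusted p = 0.596) with it and 2.21 (limma adjusted p = 0.0168) without it. Dio2, the deiodinase that activates thyroid hormone, had a log2 fold change of 1.06 (1.56 without it), and Prdm16 and Ppargc1a, regulators of brown fat, had -0.82 and -0.51.

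Pumps and motors that spend ATP had 8 of 11 tested members with positive and 3 with negative log2 fold changes, with a median of 0.50 (7 positive, 4 negative and 0.47 without the library labelled WT 3). Myo1c, a class I myosin, averaged 12417 ± 443 normalised reads in TSP2KO and 7611 ± 302 in WT (SD, n = 3 each), with a log2 fold change of 0.71 (SE 0.16, limma adjusted p = 0.204). Atp2b4, a calcium pump of the plasma membrane, averaged 732 ± 182 in TSP2KO and 331 ± 35.3 in WT (log2 fold change 1.12, SE 0.22, limma adjusted p = 0.162). Myh10 had a log2 fold change of 1.13 (SE 0.21, limma adjusted p = 0.143), and passed without the library labelled WT 3 (1.31, limma adjusted p = 0.0175). Myh9, the heavy chain of non-muscle myosin IIA, had 0.50. These lists were measured in libraries in which the contractile markers differed as given above.

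Regulators described for creatine kinase genes had 6 of 12 tested members with positive and 6 with negative log2 fold changes, with a median of 0.02 (9 positive after quantile normalisation; 7 positive and a median of 0.12 without the library labelled WT 3). Srf, the serum response factor of contractile genes, had 87.9, 78.3 and 81.9 normalised reads in TSP2KO 1, 2 and 3, against 45.3, 42.0 and 56.5 in WT 1, 2 and 3 (log2 fold change 0.78, SE 0.25, limma adjusted p = 0.357). Sp3, a factor that binds GC boxes, had 228, 228 and 190 in TSP2KO 1, 2 and 3, against 438, 333 and 296 in WT 1, 2 and 3 (log2 fold change -0.71, SE 0.22, limma adjusted p = 0.329). Neither overlapped between the groups, a pattern found for 14.2% of all genes in either direction. Mef2c, a muscle transcription factor, had a log2 fold change of -0.48 (-0.67 without the library labelled WT 3). Ppargc1b, a coactivator of mitochondrial genes, had 52.9, 30.2 and 53.4 in TSP2KO 1, 2 and 3, against 7.21, 8.63 and 43.6 in WT 1, 2 and 3, and passed without the library labelled WT 3 (log2 fold change 2.34, limma adjusted p = 0.0331).

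**Figure D5:**
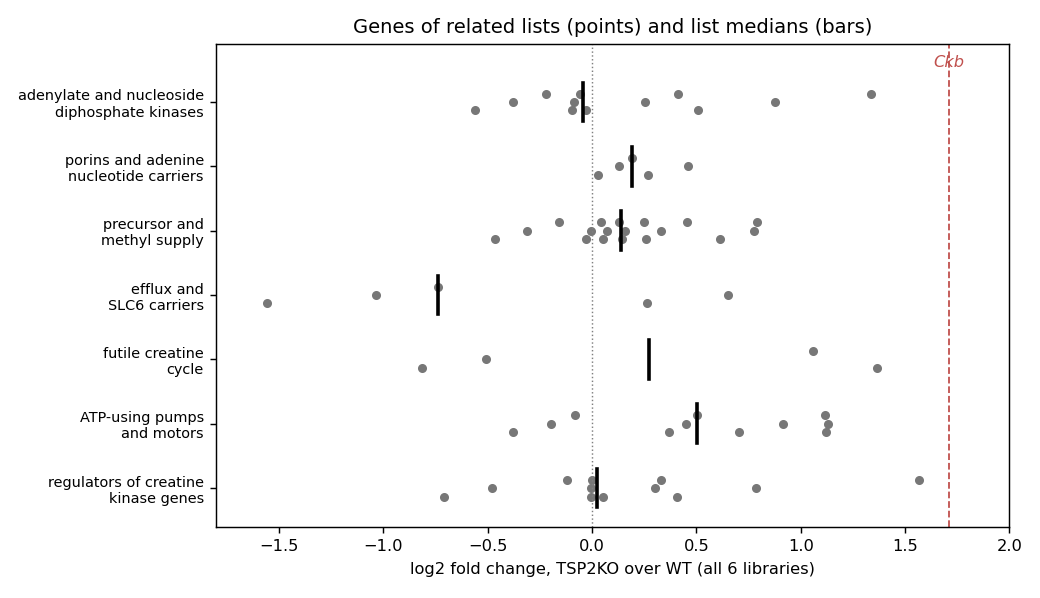
Log2 fold change, TSP2KO over WT with all 6 libraries (x axis), of each tested gene (points) in the 7 related lists (rows), with list medians as black bars and Ckb as a dashed line at 1.71. The medians run from -0.74 for efflux and SLC6 carriers to 0.50 for pumps and motors, and no point reaches the Ckb line with all libraries kept; without the library labelled WT 3, Ppargc1b (2.34), Alpl (2.21) and Arg1 (2.12) lie above Ckb (1.90).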

How the data were processed

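The authors deposited one table of normalised signal per gene, 6 columns for 6 libraries, described by its name as normalised counts. The submitters' processing notes name mm10, STAR, Partek and DESeq2 but no roles; how reads were counted, and on which strand, is not given in the sources. Each deposited library's low values lay on steps, each read as the worth of 1 read. From 68.6% to 73.9% of values above 0 were whole multiples within 0.02 of a read, so values were not treated as counts. Column names were assigned through genotype and replicate number. Coordinates and transcript lengths are of GENCODE M21, which matched 96.4% of genes after 1 base was taken off the stop.

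Genes with a mean of at least 10 were tested, 14707 in all, as log2(value + 1), with limma 3.58.1 in R 4.3.3 (mean-variance trend, two-sided, Benjamini-Hochberg adjustment over all genes). That scale understates changes of low genes. The code was tested on simulated data. Alternatives were pseudocounts of 0.1 and 10, no filter, a mean of at least 100, TMM rescaling (unweighted), quantile normalisation, limma-voom, no trend, a replicate block, each library left out and, added after the data were seen, Ckb summed with Gm12892. Members and lists were chosen with earlier results of these data known. Named were all members, Thbs2, the genes most like Ckb (5), Gatm and Slc6a8 (3 each) by Pearson r, up to 4 genes of each list by p and, of marker lists, up to 2 by level. Genes named outside this rule are marked as such.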

Additional observations from a re-analysis of the deposited data

How the results depend on the processing

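With all 6 libraries kept, the log2 fold change of Ckb was positive and not called under every other setting run, the sum with Gm12892 included (1.68 to 1.77, limma adjusted p between 0.0604 and 0.159). Leaving out 1 library gave 1.56 to 1.90, and the call was made only without the library labelled WT 3 (1.90). The other 4 members kept their sign and were not called in any setting run. Leaving out 1 library gave 0.70 to 3.16 for Ckmt1, -1.01 to -0.14 for Gatm, -1.21 to -0.13 for Gamt and -0.60 to -0.20 for Slc6a8. Ckmt1 and Gamt fell below the filter at a mean of at least 100 and have no value there. Counts of genes called as lower, 9 in all, became 14 with a pseudocount of 10, 15 without a trend, and 0 with a pseudocount of 0.1, no filter, a mean of at least 100, quantile normalisation, limma-voom or the replicate block. Leaving out 1 library gave 0 to 404 lower and 0 to 357 higher genes over all genes tested, and 0 to 4 higher and 0 to 1 lower over the 7 lists, with calls only without the library labelled WT 3.

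Samples share replicate numbers, but same-numbered libraries did not deviate together (correlations of deviations from group means of -0.42, -0.25 and -0.39), so the numbers are not taken as pairs. With the replicate block Ckb had a log2 fold change of 1.71 (limma adjusted p = 0.105). Depth limits Ckmt1 and Gamt most, whose lowest libraries rest on 4 and 24 reads.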
